A study of Mus musculus with 12 samples.

Results

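The data describe the mRNA of 41 genes of sterol and fatty acid synthesis in cultured mouse cytotoxic T lymphocytes (CTL), read from a table of 11022 genes. The genes were chosen by name: 42 symbols of enzymes, regulators and transporters were looked up, and 41 of them had a row. The remaining symbol, Msmo1, is the current name of the gene that the table lists under its older name Sc4mol, so each gene on the list had a value. The symbols were not picked by a cut on the measured values, but the choice was made with earlier results of these data known. Of the 41 genes 40 had a mean of at least 1 FPKM over all samples. FPKM is the number of fragments per kilobase of exon, scaled to the library's total, and it allows levels to be compared between genes of unequal length.

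CTL were grown from the lymph nodes or spleens of female mice of the LCMV-P14 TCR transgenic strain, whose CD8 T cells carry 1 T cell receptor (TCR), specific for the viral peptide gp33-41. Cells were activated with that peptide and then expanded in interleukin 2 (IL-2), so the unstimulated group consists of effector cells that had met antigen earlier and not of resting T cells. There were 4 groups of 3 cultures, all in IL-2 at 20 ng/mL. The 3 biological replicates came from 3 mice, so cultures of different groups shared mice. Unstimulated CTL received no further peptide. The TCR group received gp33-41 at 100 ng/mL for 4 h. The PI3K inhibitor group received the peptide together with IC87114 at 10 µM, which blocks the lipid kinase PI3K p110δ, and the MEK inhibitor group received it together with PD184252 at 2 µM, which blocks the kinase MEK upstream of ERK. The study asked how far these kinases carry the antigen receptor's control of transcription. All values come from RNA of whole cultures, where fewer cells that express a gene cannot be told apart from less of its RNA per cell.

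Cholesterol is built from acetyl-CoA through mevalonate, isoprenoid diphosphates, squalene and lanosterol, and fatty acids are built from the same acetyl-CoA by Acaca and Fasn and then elongated and desaturated. Most of the enzymes are targets of the SREBP transcription factors, encoded by Srebf1 and Srebf2, which are held in the endoplasmic reticulum by Insig proteins when sterol is plentiful and are escorted by Scap to the Golgi proteases when it is scarce. Sterol in excess, in the form of oxysterols, activates the LXR receptors, which induce the efflux transporters Abca1 and Abcg1. Activated T cells are known to turn this pathway on when they prepare to divide.

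The total of FPKM over all genes differed between the groups: it was 470420 to 495945 per sample in unstimulated CTL, 620715 to 666922 in the TCR group, 549897 to 585849 with the PI3K inhibitor and 524343 to 539350 with the MEK inhibitor. Because of this, each comparison was repeated after every sample had been brought to the same total of FPKM (called the TPM scale). Any factor per sample is removed by this, the authors' TMM adjustment included. A call on the TPM scale therefore has to be read beside the shift of all genes. That rescaling moved the median log2 difference of all genes from -0.01 to -0.41 between TCR and unstimulated samples, from 0.02 to 0.19 for the PI3K inhibitor against TCR, from 0.01 to 0.26 for the MEK inhibitor against TCR, from -0.01 to 0.07 for the MEK against the PI3K inhibitor, from 0.01 to -0.22 for the PI3K inhibitor against unstimulated and from -0.01 to -0.15 for the MEK inhibitor against unstimulated. Cultures of the same group correlated at 0.9925 to 0.9946 (Pearson's r over genes, which are not independent of each other), and a sample had 2 to 73 genes at 0. The label CTL was checked on marker genes: 6 of 6 T cell markers were in the table, with Gzmb at a mean of 8740.3 FPKM and Cd8a at 221 FPKM in unstimulated cells. Of 6 B cell markers 0 were in the table, of 10 myeloid and dendritic markers 1 (Itgax, 0.41 FPKM unstimulated and 0.53 FPKM in the TCR group), of 3 NK markers 1 (Klrb1c), of 6 erythroid and platelet markers 1 (Itga2b, at most 0.42 FPKM as a group mean), of 6 stromal and endothelial markers 2 (Col1a1 and Pecam1) and of 3 CD4 T cell markers 2 (Cd4 and Zbtb7b). Several of these moved between groups. Klrb1c went from 5.39 FPKM in unstimulated to 1.79 FPKM in TCR samples, and was at 2.27 FPKM with the PI3K and 1.59 FPKM with the MEK inhibitor. Pecam1 was at 11.2, 12.4, 6.65 and 15.3 FPKM and Col1a1 at 0.0167, 0.357, 0.0967 and 0.0633 FPKM in the same order of groups. In that order Cd4 was at 0.773, 2.69, 2.94 and 0.45 FPKM and Zbtb7b at 7.37, 5.29, 3.92 and 9.95 FPKM, and the part of these markers in the results was not tested.

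In unstimulated CTL the pathway was expressed across its whole length. The 41 genes had a median of group means of 17.1 FPKM, from 0.36 FPKM for Abca1 to 140.1 FPKM for Scd2, a stearoyl-CoA desaturase that makes monounsaturated fatty acids. Fdps, the farnesyl diphosphate synthase at the branch between sterols and other isoprenoids, was next at 138 FPKM. The steps from acetyl-CoA to the isoprenoids had a median of 16.2 FPKM, those from squalene to cholesterol 21.8 FPKM, the SREBP factors and their control 22.2 FPKM and the fatty acid enzymes 36.4 FPKM. In the TCR group the median of all 41 genes was 13.2 FPKM, with the PI3K inhibitor 14.3 FPKM and with the MEK inhibitor 11.9 FPKM.

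Promoter sequences of 6 of the genes are given as examples. Among the genes with a promoter window, Hmgcs1 is the one with a match to the sterol regulatory element, the site that SREBP binds. Acat2, Elovl5 and Lss passed the test in each of the 6 comparisons, as did Sc5d and Fdft1, which are not shown. Insig1 was lower with the MEK inhibitor than with TCR alone on each scale. Abca1 is the efflux transporter that had a window. It does not represent Abcg1, which moved the other way with TCR stimulation. Each run is the 250 bases before the RefSeq start on GRCm38.p6, written 5′ to 3′ on the gene's strand. Capitals mark matches to the sterol regulatory element (TCACNCCAC), the CCAAT box (CCAAT, or ATTGG on the other strand) and the GC box (GGGCGG, or CCGCCC on the other strand).
Hmgcs1 (chr13:119690101-119690350, plus strand): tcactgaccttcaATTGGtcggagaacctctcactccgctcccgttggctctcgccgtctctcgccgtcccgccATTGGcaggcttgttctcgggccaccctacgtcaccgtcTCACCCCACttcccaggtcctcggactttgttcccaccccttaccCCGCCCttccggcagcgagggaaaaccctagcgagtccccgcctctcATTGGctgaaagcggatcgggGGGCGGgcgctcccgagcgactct
Acat2 (chr17:12960726-12960975, minus strand): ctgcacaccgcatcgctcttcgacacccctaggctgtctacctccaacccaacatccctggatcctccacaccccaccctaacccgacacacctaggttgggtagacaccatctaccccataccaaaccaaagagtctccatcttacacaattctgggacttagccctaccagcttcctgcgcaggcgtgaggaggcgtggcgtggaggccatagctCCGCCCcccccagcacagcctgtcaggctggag
Elovl5 (chr9:77917115-77917364, plus strand): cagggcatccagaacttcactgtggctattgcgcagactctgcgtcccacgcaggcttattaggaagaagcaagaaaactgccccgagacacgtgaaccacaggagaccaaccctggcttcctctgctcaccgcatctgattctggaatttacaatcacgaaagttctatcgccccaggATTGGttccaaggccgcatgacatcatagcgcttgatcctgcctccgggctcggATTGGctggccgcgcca
Lss (chr10:76531355-76531604, plus strand): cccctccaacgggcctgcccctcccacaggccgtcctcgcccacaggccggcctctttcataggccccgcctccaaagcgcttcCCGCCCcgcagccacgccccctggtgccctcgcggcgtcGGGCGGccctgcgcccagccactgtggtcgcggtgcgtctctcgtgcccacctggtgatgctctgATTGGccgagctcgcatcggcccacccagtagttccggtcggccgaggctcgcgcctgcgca
Insig1 (chr5:28071162-28071411, plus strand): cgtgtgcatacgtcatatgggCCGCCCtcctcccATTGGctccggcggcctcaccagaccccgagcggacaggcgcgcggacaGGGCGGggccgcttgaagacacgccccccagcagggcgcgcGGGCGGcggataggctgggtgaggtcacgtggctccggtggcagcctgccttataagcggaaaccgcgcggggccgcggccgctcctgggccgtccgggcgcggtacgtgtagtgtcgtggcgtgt
Abca1 (chr4:53159896-53160145, minus strand): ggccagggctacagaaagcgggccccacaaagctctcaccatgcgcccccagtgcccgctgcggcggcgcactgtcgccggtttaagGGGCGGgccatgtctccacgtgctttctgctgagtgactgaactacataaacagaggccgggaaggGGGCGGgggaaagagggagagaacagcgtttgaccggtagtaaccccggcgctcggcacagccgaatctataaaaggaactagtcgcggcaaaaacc
The element in the Hmgcs1 promoter reads TCACCCCAC and begins 137 bases before the start. Over windows from 250 bases before to 50 bases after the start, on both strands, 1 of the 33 genes with a window held the sterol regulatory element (3.0%), against 1.4% of all 27025 RefSeq genes. A CCAAT box was in 24 of 33 (72.7%), against 41.1% of all genes and 43.5% of the 8332 genes of the table that had a window. A GC box was in 25 of 33 (75.8%), against 38.2% and 69.9%. These matches are letters in a window and no evidence of binding, and 8 of the 41 genes had no window.

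After 4 h of TCR stimulation the mRNA of most of the pathway was lower than in unstimulated CTL. Of the 41 genes 25 fell and 4 rose, where 34.9% of all 11022 genes fell and 33.6% rose (limma on log2(FPKM + 0.1), Benjamini-Hochberg adjusted p under 0.05, as in every call that follows). A fall of more than 2-fold was seen in 10 of the 41, against 11.1% of all genes. The median log2 difference of the 41 was -0.58, against -0.01 for all genes. By role, 6 of 8 genes from acetyl-CoA to the isoprenoids fell and 0 rose, 7 of 11 from squalene to cholesterol fell and 0 rose, 7 of 11 fatty acid genes fell and 2 rose, both Stard4 and Lpin1 fell, and of the 7 SREBP factors and regulators 2 fell and 1 rose.

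**Figure D1:**
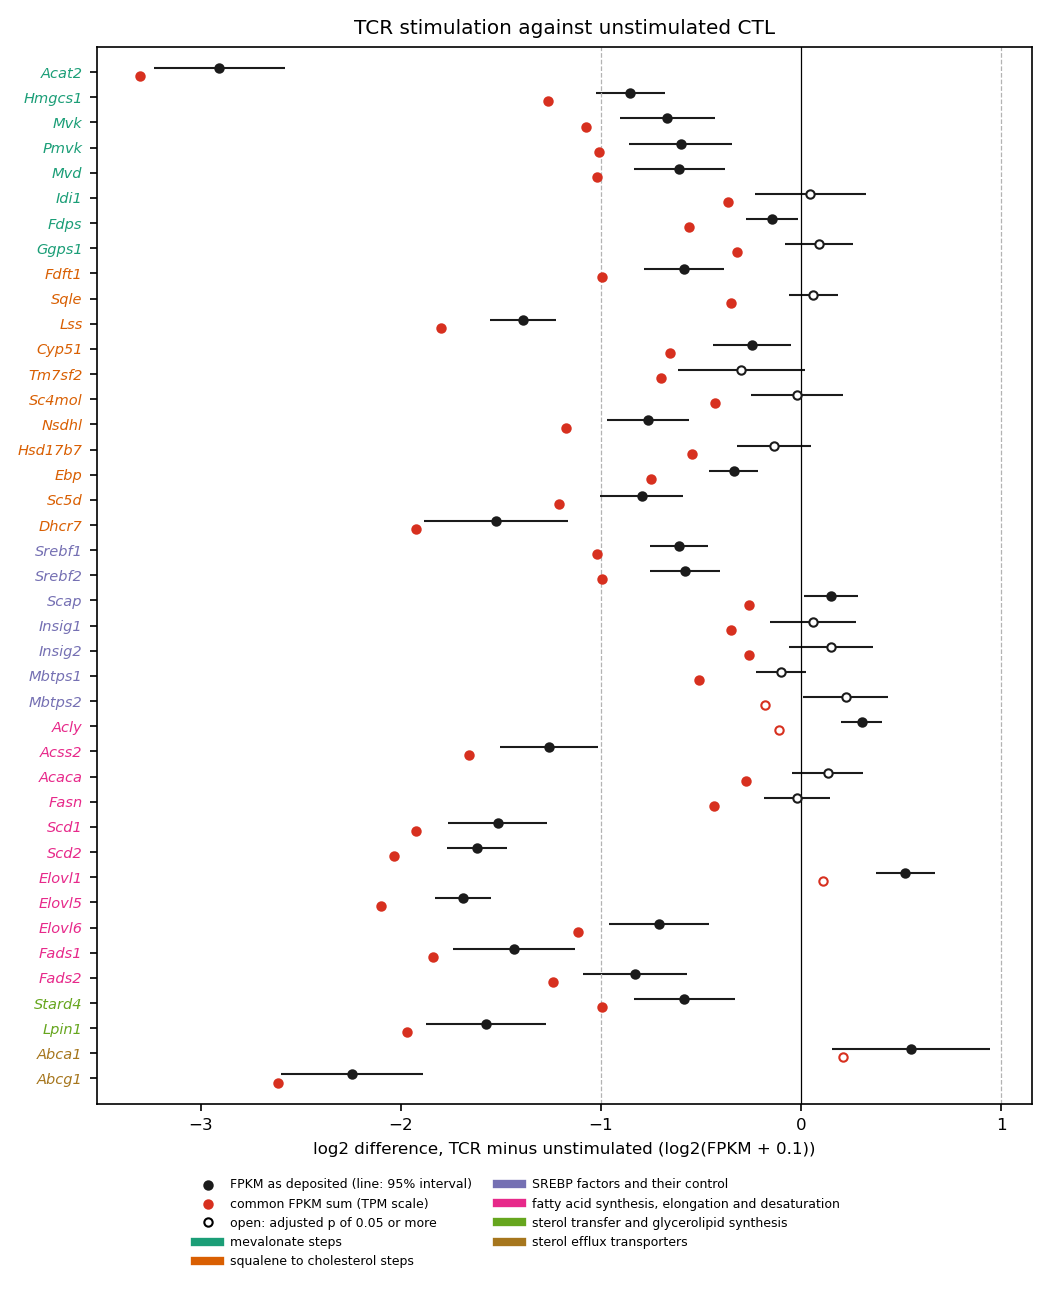
Log2 difference of each of the 41 genes between TCR and unstimulated samples (3 cultures each) on log2(FPKM + 0.1), with 95% intervals in black for the deposited values and red points for the TPM scale; open points did not pass the test and gene names are coloured by role. Acat2 lies lowest at -2.91 and Abca1 highest at 0.55, and the red points of all 41 genes lie to the left of the black ones.

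Acat2, which joins the first pair of acetyl-CoA molecules on the way to mevalonate, fell most. It was at 12.91, 11.78 and 12.37 FPKM in the unstimulated cultures and at 1.53, 1.36 and 1.82 FPKM in the TCR cultures. The groups were far apart, with the highest TCR culture well under the lowest unstimulated one (log2 difference -2.91, SE 0.15, adjusted p = 3.015e-10). Of the 100-base stretches of its transcripts 28.9% also occur in another gene, chiefly in its close relative Acat3, and how reads were shared between them is not stated. Hmgcs1, the cytosolic HMG-CoA synthase of the next step, went from 60.78, 72.66 and 68.13 FPKM to 34.84, 41.95 and 34.76 FPKM, again without overlap (log2 difference -0.85). Opposite to Hmgcs1 lies the antisense gene Gm48342, which shares 557 exon bases (12.1%) with it. The kinases Mvk and Pmvk and the decarboxylase Mvd, which turn mevalonate into isopentenyl diphosphate, fell by 0.67, 0.60 and 0.61 on the log2 scale, and in each the TCR cultures lay under the unstimulated ones. Fdps fell by 0.15 (adjusted p = 0.0444) with overlapping groups. The isomerase Idi1 (12.3 ± 1.19 FPKM unstimulated, 12.7 ± 1.40 FPKM with TCR, SD, n = 3) and the geranylgeranyl diphosphate synthase Ggps1 (15.2 ± 1.15 and 16.1 ± 0.867 FPKM) did not pass the test as deposited. They were called lower on the TPM scale at log2 differences of -0.36 and -0.32, where the median of all genes was -0.41.

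The enzymes of the sterol branch differed widely in how much they fell. Lss, which closes squalene epoxide into lanosterol, was at 21.36, 23.44 and 20.61 FPKM in unstimulated cells and at 8, 8.18 and 8.58 FPKM with TCR (log2 difference -1.39, SE 0.08, adjusted p = 6.272e-10). Dhcr7, the reductase of the last step to cholesterol, was at 7.15, 7.63 and 6.10 FPKM and then at 1.97, 2.25 and 2.90 FPKM (log2 difference -1.52, SE 0.17, adjusted p = 1.26e-06). In both genes every TCR culture lay under every unstimulated culture. Smaller falls were seen in the sterol desaturase Sc5d (log2 difference -0.80), the dehydrogenase Nsdhl (-0.77), the squalene synthase Fdft1 (-0.59), the isomerase Ebp (-0.34) and the lanosterol demethylase Cyp51 (-0.25). Sqle, the squalene epoxidase often named as a rate-setting step of the branch, was at 30.46, 34.03 and 33.71 FPKM without and at 35.17, 34.75 and 32.47 FPKM with TCR stimulation. Its groups overlapped and it did not pass the test (log2 difference 0.06, 95% interval -0.06 to 0.19), but was called lower at -0.35 on the TPM scale, where all genes shifted down. Sc4mol (-0.02), Hsd17b7 (-0.14) and Tm7sf2 (-0.30) did not pass either as deposited and were likewise called lower on the TPM scale. The exons of Fdft1 share 774 bases (18.3%) with Ctsb on the other strand, and the strand setting of the counting is not known here.

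Both SREBP genes fell on each scale, while calls of their controllers depended on the scale. Srebf1 went from 31.4 ± 1.44 to 20.5 ± 1.07 FPKM (log2 difference -0.61, adjusted p = 1.232e-06) and Srebf2 from 78.2 ± 7.11 to 52.1 ± 1.78 FPKM (-0.58, adjusted p = 1.507e-05), without overlap in either. Insig1, a retention factor and itself an SREBP target, was at 14.09, 17.13 and 14.02 FPKM and then at 15.56, 16.51 and 14.94 FPKM, with overlapping groups (log2 difference 0.06, 95% interval -0.15 to 0.28). On the TPM scale it was called lower at -0.35, where the median of all genes was -0.41. Insig2 (0.15) and the Golgi proteases Mbtps1 (-0.10) and Mbtps2 (0.22) did not pass the test as deposited, and of these Insig2 and Mbtps1 were called lower on the TPM scale and Mbtps2 higher after quantile normalisation (adjusted p = 0.01329). Scap was called higher at a log2 difference of 0.15 (adjusted p = 0.04714) with overlapping groups, but on the TPM scale the gene was called lower (-0.26).

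Among the fatty acid genes, 4 desaturases and the elongases Elovl5 and Elovl6 fell on each scale, whereas Fasn and Acaca, which make the chain, were called lower on the TPM scale alone. Elovl5, which elongates polyunsaturated fatty acids, went from 45.47, 45.11 and 47.01 FPKM to 12.64, 15.03 and 14.92 FPKM (log2 difference -1.69, SE 0.07, adjusted p = 1.064e-11). Scd2 went from 139.17, 144.50 and 136.72 FPKM to 41.04, 47.42 and 48.43 FPKM (log2 difference -1.62, SE 0.07, adjusted p = 3.338e-11). In both genes every TCR culture lay far under every unstimulated one. Scd1, its neighbour on chromosome 19, fell by 1.52 (SE 0.12, adjusted p = 2.122e-08), the desaturase Fads1 by 1.43 (SE 0.14, adjusted p = 4.057e-07), Fads2 by 0.83, Elovl6, which elongates saturated chains, by 0.71, and Acss2, which makes acetyl-CoA from acetate, by 1.26 (SE 0.11, adjusted p = 1.481e-07) on the log2 scale. Fasn, the fatty acid synthase, was at 65.83, 68.93 and 57.26 FPKM in unstimulated cells and at 61.24, 62.56 and 64.86 FPKM with TCR. Its groups overlapped (log2 difference -0.02, 95% interval -0.19 to 0.14), and Acaca, the acetyl-CoA carboxylase, did not pass the test either (13.6 ± 1.10 and 14.9 ± 1.14 FPKM). On the TPM scale their log2 differences were -0.43 and -0.28 and both were called lower, where the median of all genes was -0.41. Acly, which releases acetyl-CoA from citrate, went from 77.74, 81.03 and 77.38 FPKM to 97.60, 97.99 and 95.73 FPKM without overlap, a log2 difference of 0.30 that became -0.11 and did not pass on the TPM scale. Elovl1, which elongates very long chains, had a log2 difference of 0.52, which was 0.11 and did not pass on the TPM scale.

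Lpin1, a phosphatidate phosphatase of glycerolipid synthesis, fell from 4.04, 4.89 and 4.37 FPKM to 1.13, 1.64 and 1.53 FPKM (log2 difference -1.58, SE 0.14, adjusted p = 1.196e-07). Stard4, which carries sterol between membranes, went from 24.1 ± 2.42 to 16.1 ± 2.13 FPKM (-0.58). The groups did not overlap in either gene. Of the efflux transporters, Abcg1 went from 3.11, 2.46 and 2.45 FPKM to 0.53, 0.43 and 0.49 FPKM (log2 difference -2.24, SE 0.17, adjusted p = 1.482e-08). Abca1 moved the other way, from 0.40, 0.31 and 0.37 FPKM to 0.58, 0.55 and 0.58 FPKM (log2 difference 0.55, adjusted p = 0.01601; 0.21 and not passing on the TPM scale). Each TCR culture lay under the unstimulated ones for Abcg1 and above them for Abca1, and at these low levels the added 0.1 FPKM shrinks the log2 difference.

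The 25 genes that fell were called lower under all 3 scalings tried (as deposited, TPM scale and quantile normalisation), whereas 0 of the 4 called higher were called so under all 3. On the TPM scale 37 of the 41 were lower and 0 higher by the adjusted p, and 0 were higher by an unadjusted p under 0.05, where 60.9% of all genes were lower and 15.3% higher. The median of the 41 was then -0.99, against -0.41 for all genes.

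**Figure D2:**
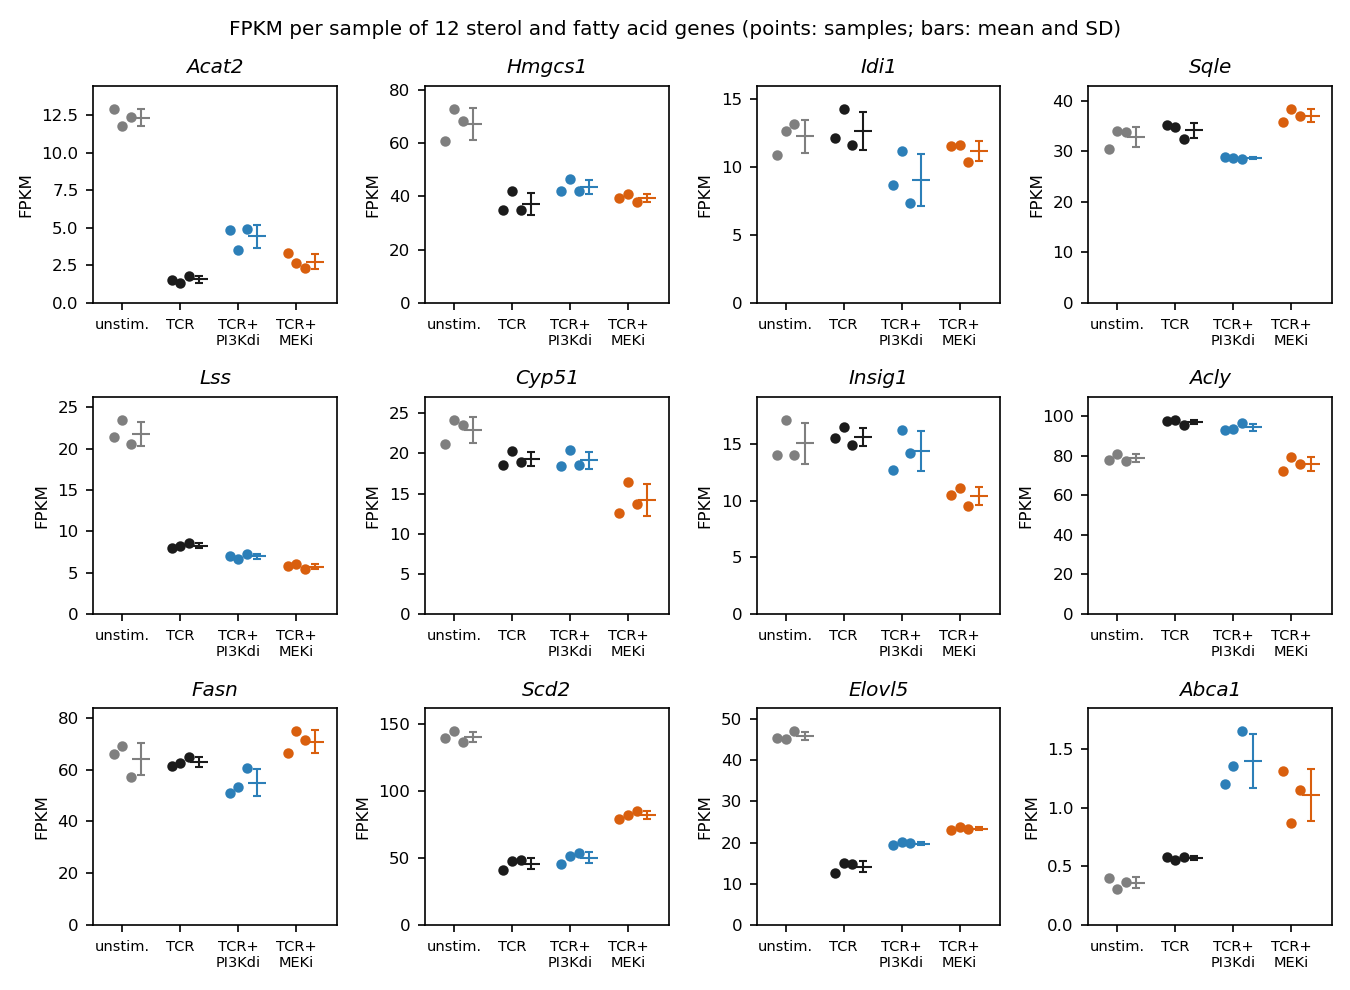
FPKM in each of the 12 samples for 12 of the genes, with the mean and SD of the 3 cultures per group beside the points; all axes start at 0. Acat2, Lss, Scd2 and Elovl5 drop with TCR stimulation, the Sqle and Fasn groups overlap on this deposited scale (both were called lower on the TPM scale), Scd2 is higher under the MEK than under the PI3K inhibitor, and Abca1 is highest with the PI3K inhibitor at a mean of 1.40 FPKM.

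With the PI3K inhibitor present during stimulation, Acat2, Abca1 and Elovl5 were higher than with TCR alone and Idi1 and Sqle lower, and for 29 of the 41 genes no difference was detected. Of the 41 genes 7 were higher than with TCR alone and 5 lower, where 12.7% of all genes were higher and 12.8% lower, and the median log2 difference was 0.03 against 0.02 for all genes. A difference of more than 2-fold upward was seen in 2 of the 41, Acat2 and Abca1, against 0.499% of all genes. Same-numbered cultures of these groups deviated together. With the replicate number as a block, a term that the main fit does not have, 8 were higher and 6 lower. Of all genes 13.9% were then higher and 14.2% lower. Hmgcs1 (adjusted p = 0.0104) and Lpin1 (0.0478) joined the former, Fads2 (0.0362) the latter, and Srebf1 (0.05386) no longer passed. Leaving out single cultures gave 3 to 7 higher and 2 to 3 lower genes.

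Acat2 was at 4.86, 3.55 and 4.90 FPKM with the PI3K inhibitor, against 1.53, 1.36 and 1.82 FPKM with TCR alone (log2 difference 1.44, SE 0.15, adjusted p = 1.508e-05). All treated cultures lay above all TCR cultures and under the unstimulated ones. Abca1 was at 1.20, 1.35 and 1.65 FPKM, against 0.58, 0.55 and 0.58 FPKM (log2 difference 1.15, SE 0.18, adjusted p = 0.0004046), higher than in either of the 2 groups without inhibitor. Elovl5 was at 19.31, 20.04 and 19.81 FPKM, above each TCR culture (log2 difference 0.48, SE 0.07, adjusted p = 0.0001489). Srebf1 (0.19, adjusted p = 0.04619), Fdft1 (0.30, 0.03065), Sc5d (0.29, 0.03903) and Abcg1 (0.49, 0.04139) were also called higher, Sc5d with overlapping groups.

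The 5 genes called lower with the PI3K inhibitor were Idi1, Sqle, Lss, Fdps and Elovl1, where 12.8% of all genes were lower. All but Elovl1 belong to sterol synthesis, of which Acat2, Fdft1 and Sc5d were called higher. Idi1 was at 8.72, 11.16 and 7.39 FPKM, against 12.12, 14.27 and 11.63 FPKM with TCR alone, just without overlap (log2 difference -0.49, SE 0.13, adjusted p = 0.01212). Sqle was at 28.82, 28.73 and 28.53 FPKM, all under the lowest TCR culture at 32.47 FPKM (log2 difference -0.25, SE 0.06, adjusted p = 0.005911). Lss (-0.23, adjusted p = 0.04007), Elovl1 (-0.21, 0.03924) and Fdps (-0.19, 0.03065) were lower by less. Of the stretches of Idi1 transcripts 15.8% occur in another gene, chiefly Gm13502, and of those of Fdps 21.4%, chiefly in Gm43738. None of these 5 was called lower on the TPM scale, where limma called 15 of the 41 higher and 0 lower (1 lower by an unadjusted p under 0.05) and 34.6% of all genes higher and 5.04% lower. Acat2, Abca1, Elovl5 and Srebf1 were the 4 called higher under all 3 scalings.

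With the MEK inhibitor, 9 of the 41 genes were higher than with TCR alone and 9 lower, where 18.9% of all genes were higher and 18.2% lower, and the median log2 difference was 0.06 against 0.01 for all genes. The higher ones were the desaturases Scd1 and Scd2, Elovl5, Lpin1, both efflux transporters, Acat2, Dhcr7 and Srebf1. The lower ones were Insig1, Insig2, Acly and 6 enzymes of the steps from Fdps, which makes farnesyl diphosphate, to cholesterol. By role, 5 of 11 genes from squalene to cholesterol were lower and 1 higher, and 3 of 11 fatty acid genes were higher and 1 lower.

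**Figure D3:**
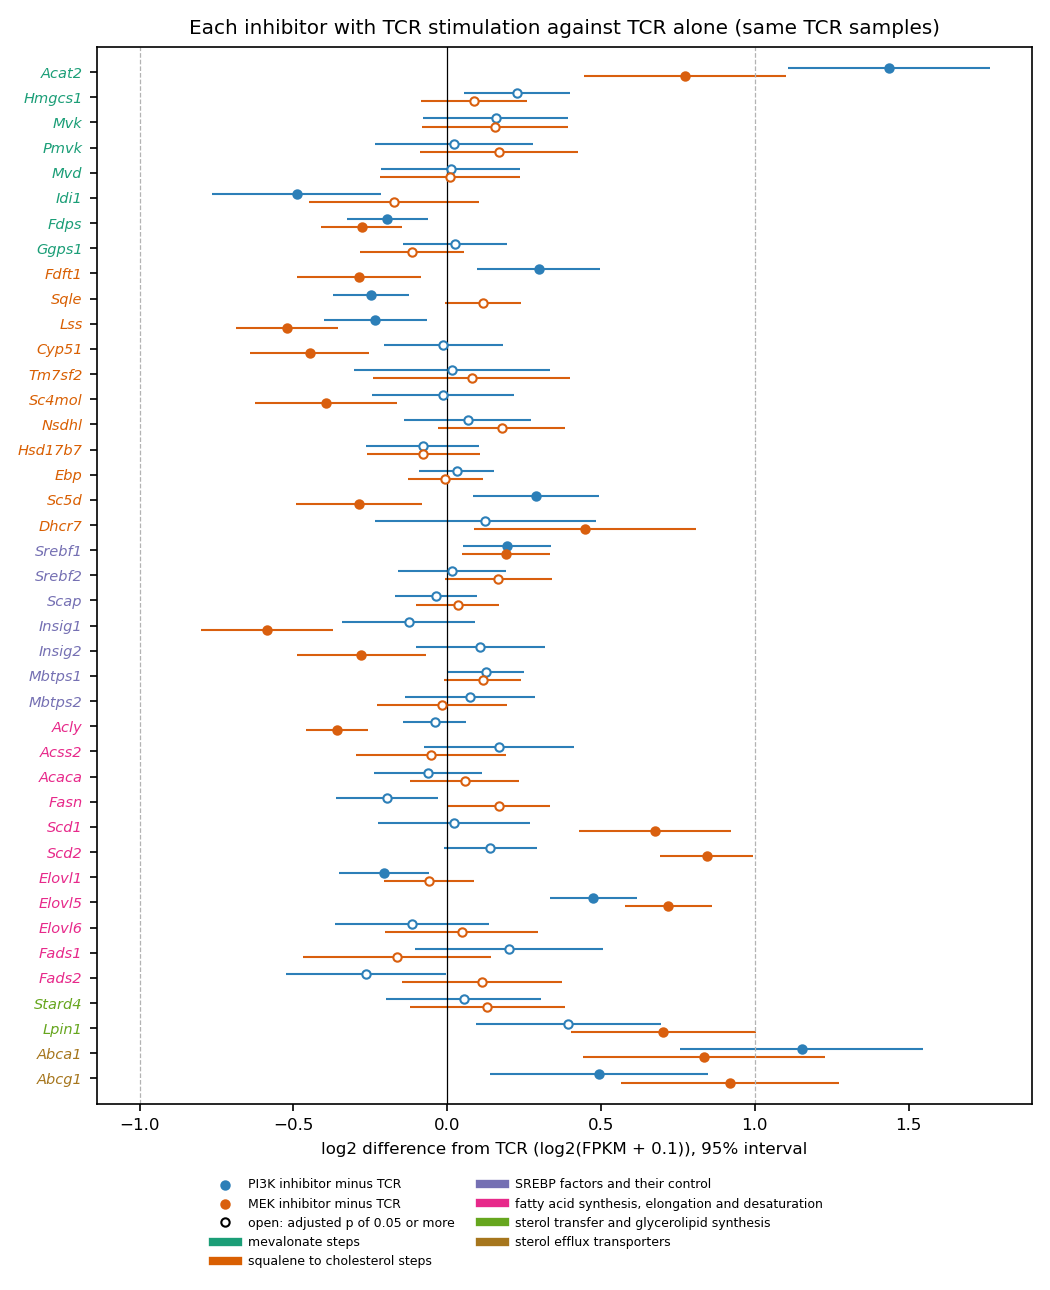
Log2 difference of each of the 41 genes from TCR alone on log2(FPKM + 0.1), with 95% intervals, for the PI3K inhibitor (blue) and the MEK inhibitor (orange); open points did not pass the test, and both inhibitor groups are set against the same 3 TCR cultures. Acat2 lies at 1.44 with the PI3K and 0.77 with the MEK inhibitor, Scd2 at 0.14 and 0.84, and Insig1 at -0.13 and -0.59.

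Scd2 was at 78.85, 81.69 and 84.83 FPKM with the MEK inhibitor, against 41.04, 47.42 and 48.43 FPKM with TCR alone (log2 difference 0.84, SE 0.07, adjusted p = 5.395e-07). Scd1 was at 8.02, 8.49 and 7.73 FPKM, against 4.87, 5.31 and 4.89 FPKM (log2 difference 0.68, SE 0.12, adjusted p = 0.0004192). Both desaturases lay between the TCR and the unstimulated cultures, without overlap on either side. Elovl5 was at 23.03, 23.83 and 23.25 FPKM, likewise between them (log2 difference 0.72, SE 0.07, adjusted p = 1.407e-06). Lpin1 was at 2.46, 2.43 and 2.22 FPKM (log2 difference 0.70, SE 0.14, adjusted p = 0.001347) and Acat2 at 3.30, 2.67 and 2.32 FPKM (0.77, SE 0.15, adjusted p = 0.001248). For both genes every culture with inhibitor lay above every TCR culture. Abcg1 was at 0.89, 0.92 and 1.22 FPKM (log2 difference 0.92, SE 0.17, adjusted p = 0.0006276) and Abca1 at 1.31, 0.87 and 1.15 FPKM (0.84, SE 0.18, adjusted p = 0.002663). Dhcr7, at 2.88, 2.82 and 4.16 FPKM, overlapped with the TCR cultures (0.45, SE 0.17, adjusted p = 0.0495), and with the replicate block its adjusted p was 0.0533.

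Insig1 was at 10.49, 11.17 and 9.58 FPKM with the MEK inhibitor, against 15.56, 16.51 and 14.94 FPKM with TCR alone (log2 difference -0.59, SE 0.10, adjusted p = 0.0004169). It was thus lower than in the TCR group and lower than in the unstimulated group, which it did not overlap. Lss, already low with TCR alone, was at 5.77, 6 and 5.40 FPKM (log2 difference -0.52, SE 0.08, adjusted p = 0.0001366), under every TCR culture. Cyp51 was at 12.53, 16.40 and 13.72 FPKM, against 18.60, 20.32 and 18.97 FPKM (-0.45), and Acly at 72.17, 79.18 and 75.98 FPKM, against 97.60, 97.99 and 95.73 FPKM (-0.36). Neither overlapped with TCR, and for Acly no difference from the unstimulated cultures was detected (log2 difference from unstimulated -0.06, 95% interval -0.16 to 0.05). Sc4mol (-0.39), Fdft1 (-0.29), Sc5d (-0.29), Fdps (-0.28) and Insig2 (-0.28) were lower by less. On the TPM scale 24 of the 41 were higher and 2 lower, where 50.2% of all genes were higher and 5.88% lower. The 2 that remained lower were Insig1 and Lss, and all genes called higher on the deposited scale except Dhcr7 were called higher under all 3 scalings.

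Set directly against each other, the groups differed most in the desaturases Scd1 and Scd2, higher with the MEK inhibitor, and in Acat2, Fdft1 and Sc5d, higher with the PI3K inhibitor. Of the 41 genes 6 were higher with the MEK than with the PI3K inhibitor and 9 lower, where 14.5% of all genes were higher and 14.4% lower. The replicate block gave 7 and 10, with Idi1 (adjusted p = 0.036) joining the higher and Fads1 (0.04998) the lower genes. Of all genes the block called 16% higher and 15.5% lower. The compounds were used at 10 µM and 2 µM against different kinases, so these are differences between 2 treatments and not between matched doses.

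**Figure D4:**
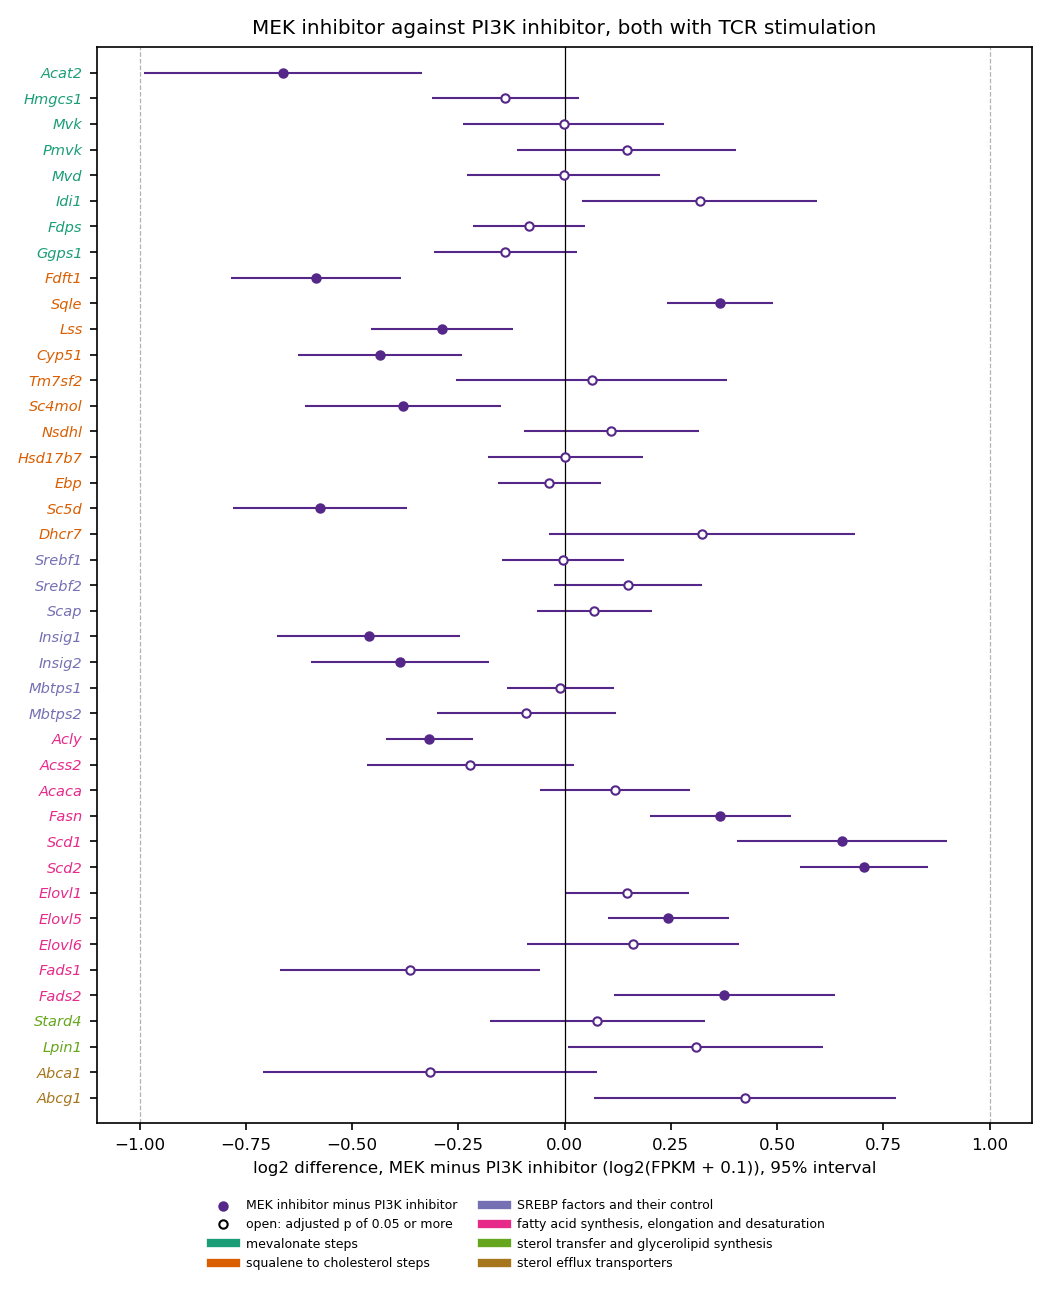
Log2 difference of each of the 41 genes between the MEK and the PI3K inhibitor group (3 cultures each, both with peptide) on log2(FPKM + 0.1), with 95% intervals; filled points passed the test. Scd2 lies highest at 0.70 and Acat2 lowest at -0.66, and Fdft1, Lss, Cyp51, Sc4mol and Sc5d all lie on the left.

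Of the fatty acid genes 5 of 11 were higher with the MEK inhibitor. Scd2 was higher by 0.70 on the log2 scale (SE 0.07, adjusted p = 3.844e-06) and Scd1 by 0.65 (SE 0.12, adjusted p = 0.0006622), without overlap. Fasn was at 66.30, 74.77 and 71.34 FPKM with the MEK inhibitor and at 50.90, 53.29 and 60.78 FPKM with the PI3K inhibitor (log2 difference 0.37, adjusted p = 0.002496). The TCR cultures, at 61.24 to 64.86 FPKM, lay between the 2 inhibitor groups, and neither inhibitor passed the test for Fasn against TCR alone (adjusted p = 0.07608 for the PI3K and 0.1006 for the MEK inhibitor). Sqle was at 35.72, 38.30 and 37.06 FPKM against 28.82, 28.73 and 28.53 FPKM (log2 difference 0.37, adjusted p = 0.0002557). Elovl5 (0.24) and Fads2 (0.38) were also higher, the latter with overlapping groups.

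Lower with the MEK than with the PI3K inhibitor were 5 of the 11 genes from squalene to cholesterol. Fdft1 was at 5.40, 5.95 and 5.73 FPKM against 8.59, 9.66 and 7.61 FPKM (log2 difference -0.58, SE 0.09, adjusted p = 0.0002825), and Sc5d at 9.87, 11.11 and 11.53 FPKM against 17.16, 17.46 and 14.09 FPKM (-0.58, SE 0.10, adjusted p = 0.0003986). For Fdft1 the TCR cultures lay between the inhibitor groups, and for Sc5d they lay above the MEK inhibitor cultures and overlapped with those of the PI3K inhibitor. Cyp51 (-0.43, adjusted p = 0.002246), Sc4mol (-0.38, 0.01571) and Lss (-0.29, 0.01194) were lower as well, Lss not on the TPM scale. Insig1 was lower by 0.46 on the log2 scale (adjusted p = 0.003099), Insig2 by 0.39 (0.007968), Acat2 by 0.66 (0.00452) and Acly by 0.32 (0.0001594). For the remaining 26 genes no difference between the inhibitors was detected. For Abca1 the interval of the difference ran from -0.71 to 0.08, for Srebf1 from -0.15 to 0.14 and for Hmgcs1 from -0.31 to 0.03.

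Against unstimulated CTL, both inhibitor groups were lower in most of the pathway. With the PI3K inhibitor 29 of the 41 genes were lower than in unstimulated CTL and 5 higher, where 30.8% of all genes were lower and 31.7% higher, and the median log2 difference was -0.44. With the MEK inhibitor 28 were lower and 4 higher, where 30.7% and 28.9% of all genes were, with a median of -0.45. Lss was lower by 1.62 with the PI3K and by 1.91 with the MEK inhibitor on the log2 scale, and Acat2 by 1.47 and 2.13. Scd2 was lower by 1.48 and 0.78. Abca1 was higher by 1.70 (adjusted p = 1.392e-06) and 1.38 (adjusted p = 1.294e-05), and with Elovl1 under the MEK inhibitor it was the gene called higher under all 3 scalings. All 29 and all 28 genes called lower were called so under each scaling. Both comparisons use the same unstimulated cultures, so their values stand side by side and are not independent.

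Other genes of lipid metabolism were counted from lists of 107 names, 87 of which were in the table. The counts of each list have to be read beside the shares of all genes. With TCR stimulation 34.9% of all genes fell and 33.6% rose, and 60.9% and 15.3% on the TPM scale. With the PI3K inhibitor 12.7% were higher and 12.8% lower than with TCR alone, and 34.6% and 5.04% on the TPM scale. With the MEK inhibitor 18.9% were higher and 18.2% lower, and 50.2% and 5.88% on the TPM scale. Among 11 further genes of sterol synthesis and uptake, 5 fell and 1 rose with TCR stimulation, and on the TPM scale 10 fell and 1 rose. With the PI3K inhibitor 1 was higher and 1 lower than with TCR alone, and with the MEK inhibitor 3 were higher and 2 lower. On the TPM scale limma called 5 higher with the PI3K and 4 higher with the MEK inhibitor and 0 lower with either, and by an unadjusted p under 0.05 also 0 were lower.

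**Figure D5:**
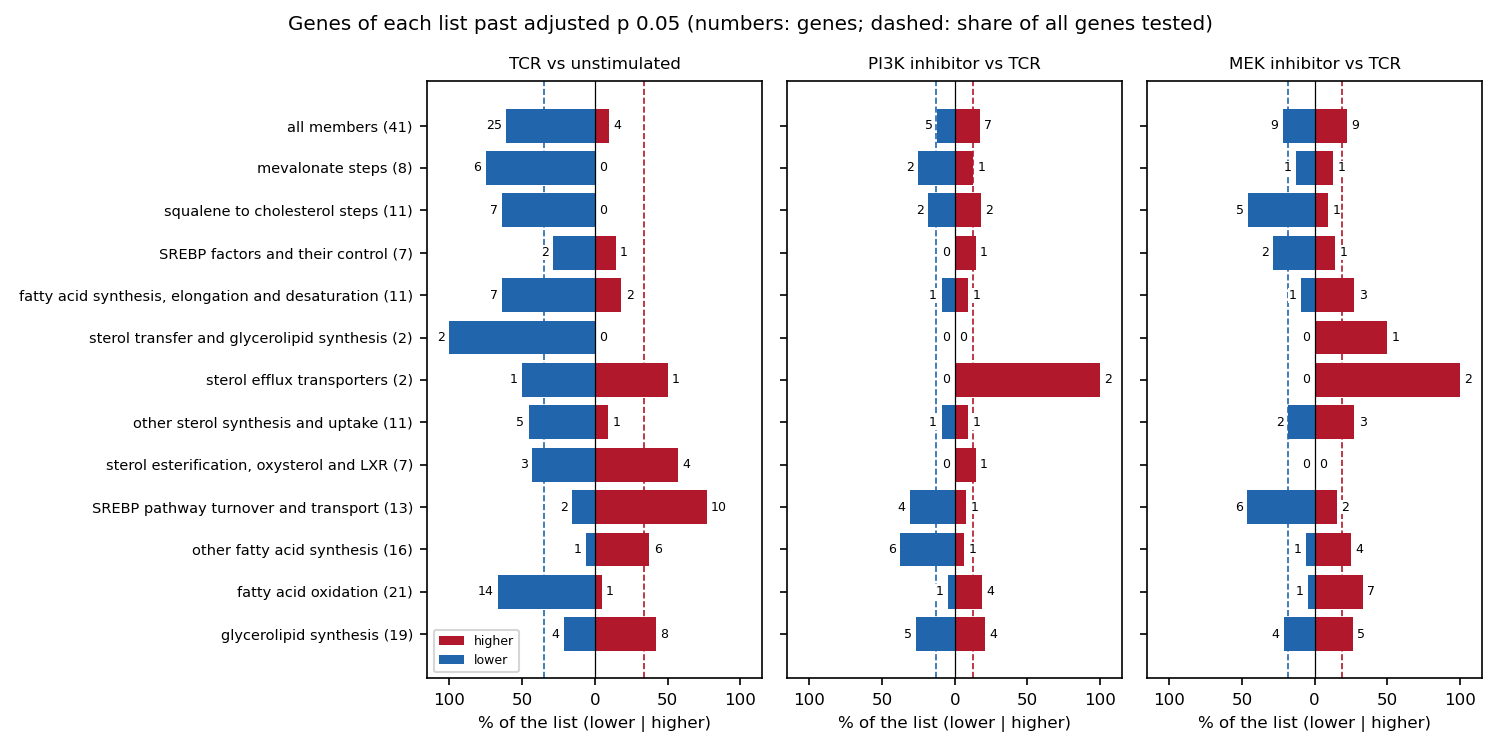
Share of each gene list called lower (blue, left) or higher (red, right) in 3 comparisons, with the number of genes beside each bar and the share of all 11022 genes as dashed lines. With TCR stimulation 25 of the 41 genes and 14 of 21 fatty acid oxidation genes were lower, while 10 of 13 genes of SREBP pathway turnover and transport were higher.

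In the list of SREBP pathway turnover and transport, 10 of 13 genes rose and 2 fell with TCR stimulation, though on the TPM scale 3 rose and 4 fell. Trib1, a pseudokinase of a ubiquitin ligase complex, went from 0.82, 0.48 and 0.49 FPKM to 13.59, 14.31 and 13.85 FPKM (4.36, adjusted p = 2.855e-12). It rose on each scale, and every TCR culture lay above every unstimulated one. With the MEK inhibitor it was at 4.60, 5.81 and 5.27 FPKM (-1.40 against TCR, adjusted p = 7.255e-06) and with the PI3K inhibitor at 8.89, 10.01 and 9.60 FPKM (-0.55, adjusted p = 0.01653, not passing on the TPM scale), under every TCR culture in both. In this list 6 of 13 genes were lower and 2 higher with the MEK inhibitor against TCR, and 4 lower and 1 higher with the PI3K inhibitor. On the TPM scale 3 were lower and 6 higher with the MEK inhibitor, where 50.2% of all genes were higher. With the PI3K inhibitor 2 were then lower and 5 higher, where 34.6% of all genes were higher.

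Of the 7 genes of sterol esterification, oxysterols and LXR, 4 rose and 3 fell with TCR stimulation, while on the TPM scale 1 rose and 3 fell. Nr1h2, an LXR receptor, had a log2 difference of 0.30 (adjusted p = 0.01196), which was -0.12 and did not pass on the TPM scale, and Nr1h3 was not among the rows. Apoe, a sterol carrier and LXR target, rose by 1.14 on the log2 scale. Mylip, a ubiquitin ligase and LXR target, fell with TCR from a mean of 3.34 FPKM to 2.16 FPKM (log2 difference -0.60, adjusted p = 0.006889). With the PI3K inhibitor Mylip was at 3.79, 3.55 and 3.89 FPKM, against 2.34, 1.69 and 2.46 FPKM with TCR alone and 1.36, 1.72 and 2.02 FPKM with the MEK inhibitor. It was higher with the PI3K inhibitor than in either of those groups (log2 difference 0.78 from TCR, adjusted p = 0.004829; the MEK inhibitor lay 1.11 under it, adjusted p = 0.0002582), without overlap.

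Of the 16 other genes of fatty acid synthesis, 6 rose and 1 fell with TCR (2 and 6 on the TPM scale). Slc25a1, the carrier that brings citrate out of mitochondria to Acly, was at 21.38, 19.99 and 21.39 FPKM with TCR alone, 15.73, 14.44 and 16.11 FPKM with the PI3K inhibitor and 29.70, 32.89 and 34.62 FPKM with the MEK inhibitor. The 3 groups were fully separate, and the inhibitors differed by 1.06 on the log2 scale (adjusted p = 4.182e-08). Aacs, which makes acetoacetyl-CoA from ketone bodies, did not pass in any of the 6 comparisons on the deposited scale (unstimulated mean 16.4 FPKM, TCR 17.1 FPKM).

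Of 21 fatty acid oxidation genes 14 fell and 1 rose with TCR stimulation, where 34.9% of all genes fell. On the TPM scale 19 fell and 1 rose, where 60.9% of all genes fell. Acadl, a long-chain acyl-CoA dehydrogenase, went from 153 ± 9.74 to 74.5 ± 3.65 FPKM (log2 difference -1.04, adjusted p = 6.931e-10). The gene that rose was Slc25a20, the carnitine carrier, from 15.43, 12.75 and 14.19 FPKM to 35.35, 31.25 and 32.71 FPKM (1.23, adjusted p = 1.78e-08). It was at 18.42, 17.12 and 14.54 FPKM with the MEK inhibitor, under every TCR culture (-0.99, adjusted p = 1.555e-06). Cpt1a, which lets long-chain fatty acids into mitochondria, was higher with the PI3K inhibitor (13.11, 13.10 and 12.91 FPKM against 8.01, 8.55 and 8.82 FPKM, log2 difference 0.62, adjusted p = 5.87e-05). It was also higher with the MEK inhibitor than with TCR alone, by less (0.30, adjusted p = 0.007498). Of 19 glycerolipid genes 8 rose and 4 fell with TCR (5 and 12 on the TPM scale). Pcyt1a, which sets the pace of phosphatidylcholine synthesis, went from 4.23, 3.91 and 4.73 FPKM to 31.14, 33.21 and 30.31 FPKM (2.85, adjusted p = 1.04e-13), and the acyltransferase Agpat4 rose by 2.61. Dgat1, which makes triglyceride, was at 43.24, 39.00 and 39.02 FPKM with the PI3K inhibitor, against 24.12, 18.02 and 17.61 FPKM with TCR alone (1.03, adjusted p = 1.508e-05). With the MEK inhibitor Dgat1 was also higher than with TCR alone, at a mean of 30.9 FPKM (0.64, adjusted p = 0.0004208).

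The genes whose 4 group means lay closest to those of 3 members, by Euclidean distance of centred log2(FPKM + 0.1) among 9899 genes, were Rfc3 (distance 0.0153), Polr3k, Lpxn, Setdb2 and Snx2 for Hmgcs1, Tmem147 (0.015), Galt, Cdc20, Fancc and Tprn for Fasn, and Tbc1d30 (0.307), Satb1, Bach2, Camsap2 and Ccr7 for Abca1. The nearest genes to Abca1 thus followed it less closely than those to Hmgcs1 and Fasn did. With 4 points per gene this is a description of shape alone. Of the 41 genes 15 share exon bases with another annotated gene, 11 of them on the opposite strand, and 5 have more than 10% of their transcript stretches in common with another gene: Acat2, Mbtps2 (27.0%, Yy2), Acaca (23.7%, Gm5182), Fdps and Idi1. How far this affects the values of these 5 is unknown, because how shared reads were counted is not stated.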

How the data were processed

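RNA sequencing of 12 CTL cultures (4 groups of 3, TruSeq Stranded kit) was analysed from 1 table. The authors aligned reads with STAR 2.4.2a to mm10, counted them per RefSeq gene with Subread 1.5.0, removed low genes and, after TMM scaling in edgeR, deposited FPKM per sample, computed from the summed length of non-overlapping exons. Replicates were not pooled. The strand setting of counting is not given in the sources used here. Read totals are not in the table, and low values did not resolve into whole reads, so the depth behind each value is unknown and no counting interval was given. All value columns were assigned to samples (0 left over).

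From these values log2(FPKM + 0.1) was fitted with limma 3.58.1 in R 4.3.3 over 11022 genes and 12 samples, with 4 group means, a mean-variance trend and Benjamini-Hochberg adjustment over all genes, in 6 comparisons. The study's own tests weighted counts, which this table does not hold. Genes with adjusted p under 0.05 passed. The code was tested on simulated data. Tables and figures were made in Python 3.11.15. Samples were grouped by their labels. The 3 biological replicates came from 3 mice, so cultures of different groups shared mice. The labels use the same replicate numbers in every group, but nothing states that equal numbers mean 1 mouse. The main fit has no replicate term, so its p-values measure the spread between cultures and ignore any pairing. Deviations of same-numbered cultures correlated, over 9899 genes, at 0.239 to 0.451 for PI3K inhibitor and TCR and 0.122 to 0.182 for MEK inhibitor and TCR. They correlated at 0.137 to 0.149 for the inhibitors and 0.117 to 0.147 for MEK inhibitor and unstimulated. For TCR and unstimulated the range was 0.0037 to 0.153, and for PI3K inhibitor and unstimulated -0.0615 to 0.114. These correlations cannot decide whether same-numbered cultures came from 1 mouse, so counts with a replicate block are given for all 6 comparisons.

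All genes of the list could be named. Full statistics were kept to at most 10 genes per comparison, those with the largest log2 difference among genes that passed with a mean of at least 1 FPKM in a compared group. From the other lists, Nr1h2, Nr1h3, Aacs and at most 2 genes per list were named, and some genes that this rule covers are not reported here. The genes, lists and tests were chosen with earlier results of these data known. Alternatives were pseudocounts of 1 and 0.01, a mean of at least 1 FPKM, quantile normalisation, the TPM scale, a replicate block, the compared groups alone and leaving out each culture. Promoters, transcripts and exons came from RefSeq and GENCODE annotation of GRCm38.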

Additional observations from a re-analysis of the deposited data

How the results depend on the processing

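Of 346 refits of 50 named differences, 328 stayed on their side of the threshold, 18 no longer passed and 0 changed sign, and of 300 refits without 1 culture 267 stayed, 33 no longer passed and 0 changed sign. The calls lost in one or more refits were small ones, such as Srebf1, Sc5d and Fdft1 with the PI3K inhibitor and Dhcr7 with the MEK inhibitor against TCR. On the TPM scale TCR against unstimulated gave 0 higher (4 as deposited), the PI3K inhibitor against TCR 15 higher and 0 lower (7 and 5), the MEK inhibitor against TCR 24 and 2 (9 and 9), and the PI3K and MEK inhibitors against unstimulated 1 and 2 higher (5 and 4). Of all genes on that scale 17.9% were higher with the PI3K and 20.6% with the MEK inhibitor against unstimulated. Quantile normalisation gave 3 lower for the PI3K inhibitor against TCR, where 10.3% of all genes were lower, and fitting these groups alone gave 3 higher and 3 lower. With the replicate block the counts of higher and lower genes were 3 and 25 for TCR against unstimulated, 8 and 6 for the PI3K and 8 and 9 for the MEK inhibitor against TCR, 7 and 10 between inhibitors, and 5 and 29 and 4 and 28 for the PI3K and MEK inhibitor against unstimulated. In the same order the block called 34.2% and 35.7%, 13.9% and 14.2%, and 20.2% and 19.2% of all genes higher and lower. For the last comparisons these shares were 16% and 15.5%, 32.5% and 31.8%, and 29.7% and 31.5%. Among the 41 genes the block changed the calls of Hmgcs1, Srebf1, Fads2 and Lpin1 (PI3K inhibitor against TCR), Dhcr7 (MEK inhibitor against TCR), Idi1 and Fads1 (between inhibitors), as given with the results, and of Scap with TCR against unstimulated (adjusted p = 0.05439), and no other. The cause of the changes on the TPM scale beyond the shift of all genes was not tested.

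Leaving out each culture in turn gave 3 to 4 higher and 23 to 24 lower genes for TCR against unstimulated, 3 to 7 and 2 to 3 for the PI3K inhibitor against TCR, 7 to 9 and 5 to 8 for the MEK inhibitor against TCR, 5 to 8 and 8 to 10 between inhibitors, 3 to 5 and 24 to 28 for the PI3K inhibitor and 2 to 5 and 27 to 28 for the MEK inhibitor against unstimulated. For the PI3K inhibitor against TCR the higher genes were 4, 3, 4 and 4 without TCR replicates 1 and 3 and inhibitor replicates 1 and 2, and the lower genes 2, 2 and 3 without TCR replicates 1, 2 and 3 and 3, 2 and 3 without inhibitor replicates 1, 2 and 3. The lower genes with the MEK inhibitor against TCR were 5 without its replicate 1. Against unstimulated, 3 were higher with the PI3K inhibitor without unstimulated replicate 1 and 2 with the MEK inhibitor without its replicate 2. These refits hold fewer cultures, and the shares of all genes called in them are not given. Depth is unknown, so the precision of genes near 1 FPKM, such as Abca1 and Abcg1, rests on the spread of 3 cultures.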
